A study of Arabidopsis thaliana with 6 samples.

Results

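THI2.1, PDF1.2 and OPCL1 are 3 jasmonate-related genes of Arabidopsis thaliana, each measured by a single probe set among the 22746 probe sets tested here. THI2.1 (AT1G72260, probe set 259802_at) encodes a thionin and PDF1.2 (AT5G44420, probe set 249052_at) a plant defensin, both small antimicrobial peptides. OPCL1 (AT1G20510, probe set 259518_at) encodes a peroxisomal CoA ligase of jasmonate biosynthesis. The genes were picked by name with their genotype differences already known, so all 3 differences below are descriptions and carry no test.

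Shoots of 3-week-old seedlings were profiled on 6 ATH1 arrays, 3 of the line EBE-XVE (line 14, Col-0 background) and 3 of wild type Col-0 (WT). In EBE-XVE, the AP2/ERF transcription factor gene EBE (AT5G61890) can be switched on by estradiol. Seedlings of both genotypes had been shaken in liquid medium for 16 h and had then received 2 µM β-estradiol for 45 min. The design aimed at early target genes of EBE, and no array without estradiol was analysed here. EBE-XVE is represented by 1 line, so a difference from WT that belongs to the line and one that follows EBE induction cannot be told apart. Signals are given in log2 units per probe set, and differences as EBE-XVE minus WT, over all 3 arrays of a genotype or within a pair of arrays that carry the same replicate number.

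Jasmonate is made from plastid fatty acids by lipases, lipoxygenases and cyclising enzymes, and the precursor is then shortened by β-oxidation in peroxisomes. OPCL1 activates that precursor with coenzyme A so that the shortening can begin. The amino acid conjugate of jasmonate is sensed by a receptor complex that removes JAZ repressors from transcription factors such as MYC2, MYC3 and MYC4. In Arabidopsis leaves PDF1.2 is a classic marker of the branch driven jointly by jasmonate and ethylene through ERF-type factors, whereas THI2.1 is a jasmonate-inducible thionin gene known for its expression in flowers and siliques.

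Replicate 1 stood apart in both genotypes, with a median signal of 5.38 (EBE-XVE) and 5.47 (WT) where the remaining arrays had 4.44 to 4.50. EBE itself read 8.55 and 7.21 on EBE-XVE replicates 1 and 2, and 3.19 on the array labelled EBE-XVE replicate 3. WT read 4.26, 2.98 and 3.02, so EBE was not raised on the third EBE-XVE array, and the mean differences of THI2.1, PDF1.2 and OPCL1 are given with and without that pair. Of 11 shoot markers 3 were measured, LHCB4.1, PSAN and RCA, and they read 11.99 to 14.20 on every array. Of 10 root markers 3 were measured. Their summed signal was 12.15 and 12.26 on the replicate 1 arrays and as low as 8.78 in EBE-XVE and 8.61 in WT elsewhere, nearly all of it from PYK10, while EXPA7 and EXPA18 read 2.13 or less. Of 12 flower markers 2 were measured, AMS and AT5G07230, and they read 2.39 to 2.78 on every array.

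THI2.1 was low on every EBE-XVE array and well above that on every WT array. Its signal was 2.62, 3.09 and 3.06 on EBE-XVE replicates 1, 2 and 3, and 8.04, 6.41 and 6.38 on WT replicates 1, 2 and 3. The groups did not overlap, and the gap between the highest EBE-XVE array and the lowest WT array was wider than the spread within either genotype. Of all probe sets, 0.892% had EBE-XVE wholly below WT. The mean was 2.92 ± 0.26 (SD, n = 3) for EBE-XVE against 6.94 ± 0.95 (SD, n = 3) for WT.

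The THI2.1 difference was -4.02, or 16.3-fold more signal in WT. Within pairs 1, 2 and 3 it was -5.42, -3.32 and -3.33, which is 42.8-fold, 10.0-fold and 10.0-fold more signal in WT. Among all 22746 probe sets no other had so low a mean difference. The gene was picked with this contrast known, so its place among all probe sets is a description and tests nothing. The pair differences ranked 8, 2 and 17 from the lowest. At least 2-fold lower signal in EBE-XVE in every pair was found for 0.0528% of all probe sets, 12 in number and THI2.1 among them. The third pair matched the second although EBE was not raised on its EBE-XVE array. Without that pair the mean difference was -4.37. Because these are bulk shoots, fewer cells that contain THI2.1 RNA and less of that RNA per cell cannot be told apart.

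Within each array THI2.1 lay above the median probe set in WT and below it in EBE-XVE. THI2.1 lay at percentiles 74.6, 65.3 and 64.4 of all probe sets on WT replicates 1, 2 and 3, and at 23.6, 38.7 and 39.5 on the EBE-XVE arrays. In EBE-XVE replicate 1 its signal of 2.62 was under the lower quartile of that array (2.67). Detection calls were not used here, so whether any THI2.1 signal remained above background in EBE-XVE was not tested.

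The replicate 1 excess in THI2.1 was seen in WT and not in EBE-XVE. WT replicate 1 read 1.64 log2 units above the mean of WT replicates 2 and 3, while EBE-XVE replicate 1 read -0.46 relative to the mean of the other EBE-XVE arrays. The wider difference of pair 1 thus came mostly from its WT array. The part played in it by the general shift of the replicate 1 arrays was not tested.

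**Figure D1:**
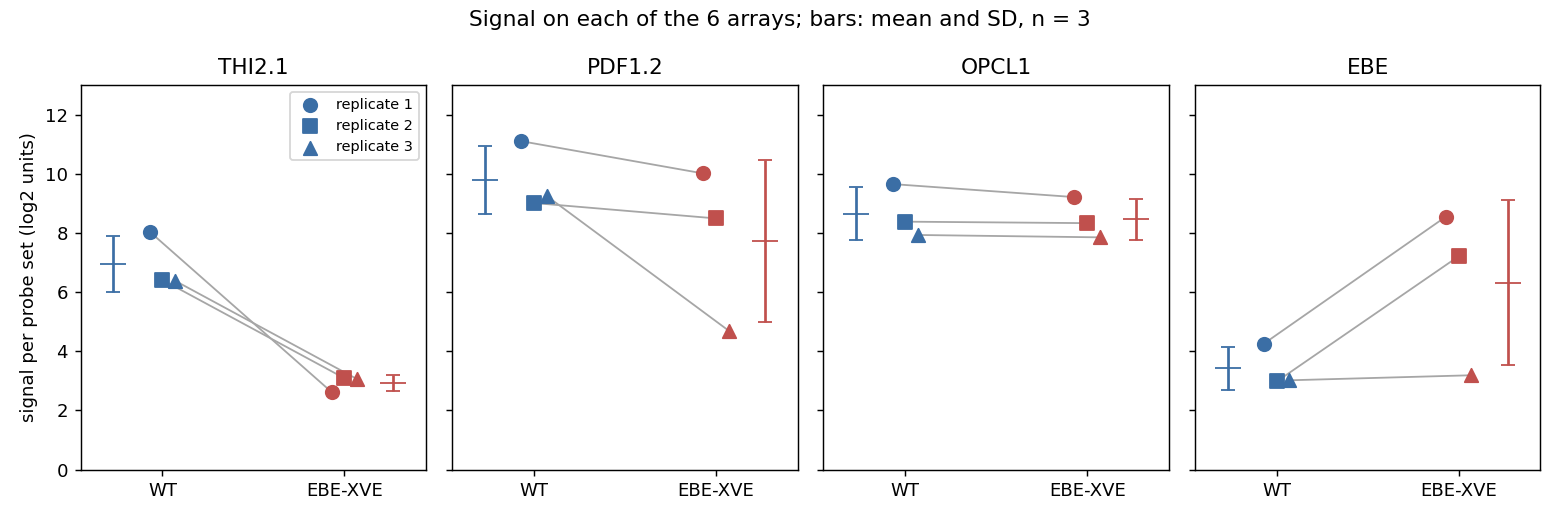
Signal of THI2.1, PDF1.2, OPCL1 and EBE on each of the 6 arrays, in log2 units, with WT in blue and EBE-XVE in red; marker shapes give the replicate number, grey lines join arrays of one pair, and bars show the mean and SD of 3 arrays. THI2.1 drops along every line, PDF1.2 drops steeply only toward the array labelled EBE-XVE replicate 3 (4.70), and the OPCL1 lines are nearly flat.

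PDF1.2 was lower in EBE-XVE in each pair, but by far the widest difference was that of pair 3. Lower signal in every pair was found for 6.23% of all probe sets. PDF1.2 was picked with its values known, so nothing is read from the shared sign. The PDF1.2 signal was 10.01, 8.49 and 4.70 on EBE-XVE replicates 1, 2 and 3, and 11.10, 9.01 and 9.25 on the WT arrays in the same order. EBE-XVE replicate 1 lay above WT replicates 2 and 3, so the groups overlapped. The mean was 7.74 ± 2.73 (SD, n = 3) for EBE-XVE against 9.79 ± 1.15 (SD, n = 3) for WT.

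The PDF1.2 difference was -2.05, or 4.14-fold more signal in WT, and its pairs gave -1.09, -0.51 and -4.55. These correspond to 2.13-fold, 1.43-fold and 23.4-fold more signal in WT. In pair 3 only 5 probe sets of the whole array had a lower difference than PDF1.2, while in pairs 1 and 2 it ranked 683 and 778 from the lowest. The array with the low PDF1.2 signal is the EBE-XVE array on which EBE was not raised. With pairs 1 and 2 alone the mean difference was -0.80. Leaving out the array labelled EBE-XVE replicate 3 and keeping all WT arrays gave -0.53, and leaving out EBE-XVE replicate 1 gave -3.19. In these last fits, which had no block, the replicate 1 arrays weigh unequally on the genotypes.

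PDF1.2 also differed between replicates of the same genotype by more than between genotypes in pairs 1 and 2. Its range was 5.31 log2 units within EBE-XVE and 2.1 within WT. In WT the replicate 1 array was 1.98 above the mean of the other arrays, and in EBE-XVE 3.41 above it. Its within-array percentile was 95.8, 88.9 and 90.2 in WT, and 91.3, 85.2 and 51.5 in EBE-XVE. PDF1.2 thus lay in the upper part of every array but that labelled EBE-XVE replicate 3, where it lay in the middle.

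OPCL1 hardly differed between the genotypes. It read 9.21, 8.33 and 7.85 on EBE-XVE replicates 1, 2 and 3, and 9.65, 8.38 and 7.93 on WT replicates 1, 2 and 3. The groups overlapped fully, and both genotypes ran in the same order across the replicate numbers. The mean was 8.46 ± 0.69 (SD, n = 3) for EBE-XVE against 8.65 ± 0.89 (SD, n = 3) for WT.

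The OPCL1 difference was -0.19, or 1.14-fold more signal in WT, with -0.44, -0.05 and -0.08 in the pairs. With pairs 1 and 2 alone the mean difference was -0.24. All 3 pair differences were below 0. Over all probe sets 6.23% were lower in EBE-XVE in every pair, and the choice of these genes used this contrast, so nothing is read from that shared sign. The replicate arrays of a genotype were spread over 1.36 log2 units in EBE-XVE and 1.72 in WT, several times the genotype difference. The replicate 1 arrays were 1.12 and 1.5 above the mean of the other arrays of their genotype. The mean difference turned to 0.12 when the array labelled EBE-XVE replicate 3 was omitted, and to 0.31 when WT replicate 1 was. Leaving out EBE-XVE replicate 1 gave -0.56, and leaving out WT replicate 3 gave -0.55. The percentile of OPCL1 was 89.0, 84.3 and 80.1 in WT and 86.0, 83.9 and 79.4 in EBE-XVE, a difference of at most a few percentile points in any pair.

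Set beside the biosynthesis gene, the 2 output genes showed unlike patterns. The THI2.1 difference minus the OPCL1 difference was -4.98, -3.27 and -3.25 in pairs 1, 2 and 3, with a mean of -3.83 ± 0.99 (SD, n = 3). The PDF1.2 difference minus the OPCL1 difference was -0.65, -0.47 and -4.47, with a mean of -1.86 ± 2.26 (SD, n = 3). That mean rested mostly on pair 3, in which EBE was not raised on the EBE-XVE array. With pairs 1 and 2 alone the mean differences were -0.80 for PDF1.2 and -0.24 for OPCL1. THI2.1 was therefore apart from OPCL1 in every pair by more than 3 log2 units, and PDF1.2 by less than 1 in pairs 1 and 2. Over the 6 arrays the PDF1.2 profile correlated with OPCL1 at r = 0.76 and with THI2.1 at r = 0.54, and THI2.1 with OPCL1 at r = 0.30. These correlations describe 6 arrays that share the replicate 1 shift.

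Among the other jasmonate genes, PDF1.2b alone differed by at least 2-fold on average, and most differed little, many of them with dim probe sets. Of 105 jasmonate genes listed, 19 had a named probe set, and 16 of these were not among the 3 genes above. A listed gene without one may still be on the array, since 8730 probe sets had no symbol listed. Limma called 0 of the 16 higher and 0 lower, beside 0% of all 22746 probe sets called in either direction at an adjusted p under 0.05 (79, or 0.347%, had an unadjusted p under 0.05, and 0 of the 16 did). The median difference was -0.05 over the 16 and 0.00 over all probe sets. Of the 16, 14 had a mean below WT, beside 59.9% of all probe sets. That count was 11 with quantile normalization and 9 with median centring, and 8 of the 16 differed by less than 0.1, so their signs carry no direction. None of the 16 had groups that did not overlap, beside 0.892% of all probe sets with EBE-XVE wholly lower and 0.488% wholly higher.

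Among the biosynthesis genes, 6 of 34 were measured. DGL, a galactolipid lipase gene, read 2.01 to 2.13 on every array, near the dim end of the scale. AIM1, a peroxisomal β-oxidation gene that acts after OPCL1, read 11.23, 9.85 and 9.82 in EBE-XVE and 11.10, 9.67 and 10.02 in WT. Its difference was 0.04, and like OPCL1 it was highest on the replicate 1 arrays. The loci AT3G62590, AT1G70480 and AT1G02660 of the same list differed by -0.07, -0.25 and -0.54. The last came from WT replicate 1, which read 4.63 while the other 5 arrays read 2.09 to 2.82.

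Of 13 genes for jasmonate conjugation and turnover, 5 were measured. JMT, which encodes the jasmonate methyltransferase, differed by -0.01 and read 2.05 to 2.1. JRG21 read 2.24 to 2.31, AT3G11180 2.00 to 2.13 and AT2G38240 2.22 to 2.31, so 4 of the 5 were dim and flat. AT5G05600 was the highest of the 16 by difference, at 0.43 (SE 0.44, adjusted p = 1.00 in limma), with -0.74, 1.00 and 1.03 in pairs 1, 2 and 3. None of the 17 listed receptor and repressor genes, the JAZ family included, had a named probe set here, which does not show that the arrays lack them.

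Of 21 transcription factor genes, 4 were measured. MYC3 and MYC4, partners of MYC2 in jasmonate responses, differed by -0.10 and -0.32. MYC4 owed its value to pair 2 (-1.08), with 0.04 and 0.09 in the other pairs. ORA47, an ERF-type regulator of jasmonate biosynthesis genes, read 2.26 to 2.51 on all arrays and differed by -0.01. NAI1, a bHLH factor of ER body formation, differed by -0.26 with -0.11, -0.10 and -0.58 in the pairs. No limma call was made for any of the 4 (adjusted p = 1.00 for each), beside 0% of all probe sets called in either direction.

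**Figure D2:**
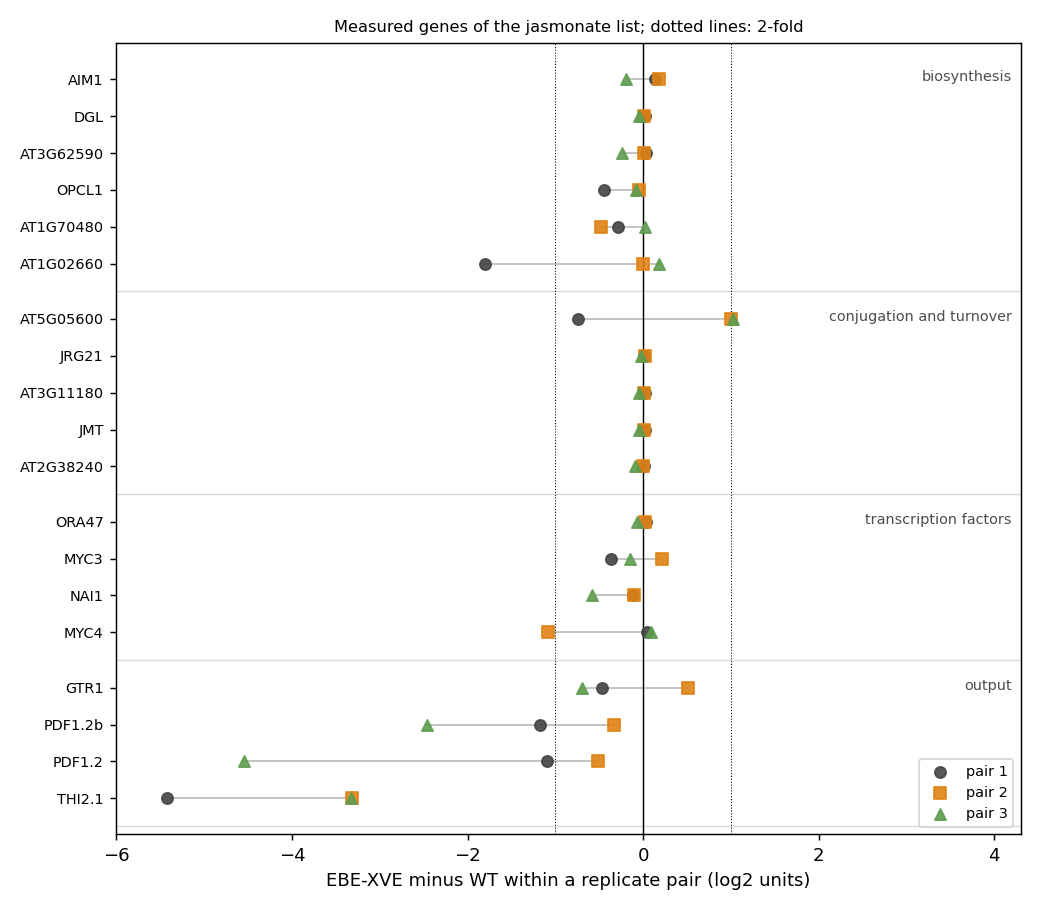
Differences EBE-XVE minus WT within pairs 1, 2 and 3 for the 19 measured jasmonate genes, in log2 units, grouped by role; dotted lines mark a 2-fold difference and a grey bar spans the 3 pairs. THI2.1 lies left of the 2-fold line in every pair, PDF1.2 and PDF1.2b reach furthest left in pair 3, and most biosynthesis, turnover and regulator genes lie between the dotted lines.

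Of 20 output genes, 4 were measured, THI2.1, PDF1.2, PDF1.2b and GTR1. PDF1.2b (AT2G26020), a defensin gene closely related to PDF1.2, read 11.70, 9.75 and 7.13 in EBE-XVE and 12.88, 10.08 and 9.58 in WT. As for PDF1.2, its lowest array was that labelled EBE-XVE replicate 3, and the groups overlapped. Its pair differences were -1.18, -0.33 and -2.46, with a mean of -1.32 (SE 1.38, adjusted p = 1.00 in limma). PDF1.2b was read by a probe set with the suffix _x_at, which marks probes that can also bind related transcripts, so signal of PDF1.2 and PDF1.2b may not be separate. GTR1, a glucosinolate transporter gene that also moves jasmonate conjugates in assays, differed by -0.22, with -0.47, 0.51 and -0.70 in the pairs.

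Of 14 thionin and defensin genes, 11 were measured, 3 thionins and 8 defensins. Limma called none of the 9 other than THI2.1 and PDF1.2 (0 higher, 0 lower), beside 0% of all probe sets in either direction. The median difference of the 9 was -0.51. The median of the 9 was -0.73, -0.03 and -0.03 in pairs 1, 2 and 3, so it rested on pair 1. Of the 9, 8 had a mean below WT, beside 59.9% of all probe sets. Their groups were separate for PDF2.2 alone, beside 0.892% of all probe sets.

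The other thionin genes did not follow THI2.1. THI2.2 read 2.35, 2.19 and 2.16 in EBE-XVE and 3.97, 2.18 and 2.2 in WT, so it was above the dim end on WT replicate 1 alone. The thionin-list locus AT1G66100 read 2.11, 4.24 and 7.34 in EBE-XVE, an array-to-array range wider than that of THI2.1. In WT it read 6.74, 5.16 and 5.24, and the pairs gave -4.63, -0.92 and 2.09. Its sign thus turned in pair 3, where THI2.1 was lower by 3.33. All 3 thionin genes had their highest WT signal on WT replicate 1.

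PDF1.4, a defensin gene, turned its sign between the pairs. It read 6.97 on WT replicate 1 and 2.58 to 3.58 on the other 5 arrays, with pair differences of -3.80, -0.01 and 0.96. PDF2.2 and PDF2.3 lay at percentiles of 95.3 or more on every array. PDF2.2 read 10.95, 11.00 and 11.45 in EBE-XVE and 11.69, 11.49 and 11.76 in WT. The groups did not overlap, and limma gave its difference of -0.51 (SE 0.20) an adjusted p of 1.00, so it did not pass. PDF2.3 differed by -0.15, PDF2.1 by -0.11, PDF2.5 by -0.03 and PDF1.1 by 0.01. In the reference gene table of assembly TAIR10.1, PDF1.2 lies directly beside PDF1.2c, for which no named probe set was found.

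Of 13 genes for 4CL-like CoA ligases, the family of OPCL1, 8 were measured. The 7 besides OPCL1 differed by -0.07 to 0.08, with a median of -0.01. Limma called none of them (0 higher, 0 lower), beside 0% of all probe sets in either direction. In the TAIR10.1 table AT1G20480, AT1G20490 and AT1G20500 precede OPCL1 as its immediate neighbours. These 3 read 2.36 to 2.77 on every array, dim and without the replicate 1 excess of OPCL1. AT1G20490 had EBE-XVE wholly below WT, beside 0.892% of all probe sets, but by only 0.07. AT4G05160, AT4G19010 and AT5G63380 did read higher on the replicate 1 arrays, on which the median probe set was also higher. AT4G05160 read 10.75 and 10.39 on the replicate 1 arrays and 9.51 to 9.75 on the others. AT4G19010 read 5.35 and 5.38 there and 3.83 to 4.1 on the others, and AT5G63380 read 7.06 and 7.07 there and 6.29 to 6.55 on the others. The percentile of AT5G63380 did not stand out on replicate 1. It was 63.9, 66.1 and 65.6 on WT replicates 1, 2 and 3, and 64.1, 63.8 and 65.9 on the EBE-XVE arrays.

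**Figure D3:**
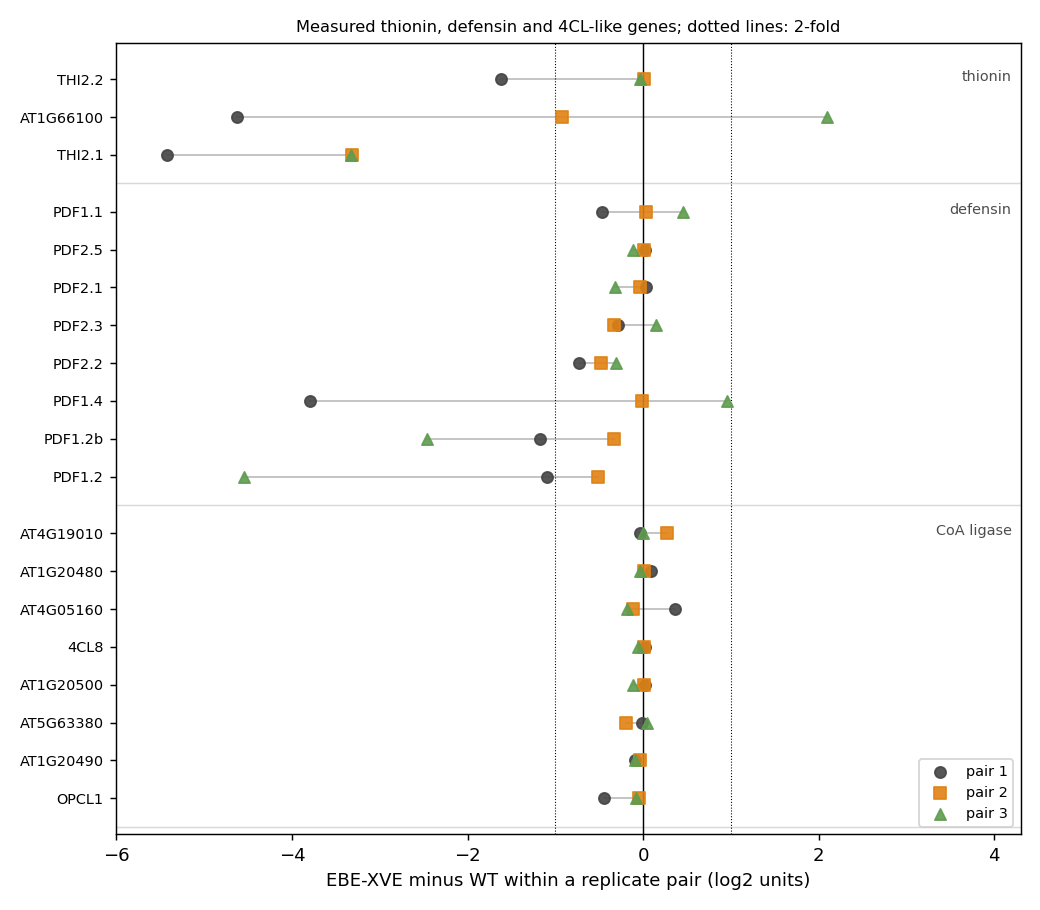
Differences EBE-XVE minus WT within pairs 1, 2 and 3 for the 11 measured thionin and defensin genes and the 8 measured 4CL-like CoA ligase genes, in log2 units; dotted lines mark a 2-fold difference. THI2.1 alone is left of the 2-fold line in every pair, AT1G66100 and PDF1.4 spread across 0, and all CoA ligase genes lie between the dotted lines.

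Genes with the most similar profiles were taken as the 5 named probe sets with the smallest root-mean-square distance over the 6 arrays. Each profile was centred on its own mean, and 13435 probe sets were compared. The 5 were chosen on these same 6 arrays, so the features they share with their gene follow from that choice. The nearest to THI2.1 were AT1G12030, AT1G62500, AT2G32150, AT4G29030 and JAL23, at distances of 1.04 to 1.27 log2 units and r of 0.81 to 0.96. AT1G12030 read 3.93, 4.95 and 3.80 in EBE-XVE and 6.82, 6.14 and 6.20 in WT. AT1G62500 read 4.65, 3.98 and 4.51 in EBE-XVE and 6.60, 6.36 and 6.26 in WT. These were the only ones of the 5 that were at least 2-fold lower in every pair, as THI2.1 was. JAL23, a jacalin-related lectin gene, differed by -3.50, -0.43 and -0.75, and AT2G32150 and AT4G29030 by -0.19 and -0.23 in pair 3.

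The nearest to PDF1.2 were PDF1.2b, AT2G43620, Prx37, AT3G05400 and AT1G65500, at distances of 0.65 to 0.93 and r of 0.92 to 0.95. All 5 had their lowest signal on the array labelled EBE-XVE replicate 3. AT2G43620 read 4.65 there and 9.19 to 11.87 elsewhere, and AT1G65500 read 3.68 there and 8.49 to 11.61 elsewhere. Their differences in pairs 1 and 2 were above 0, at 0.85 and 0.86 for AT2G43620 and 0.69 and 0.92 for AT1G65500, where PDF1.2 was below 0. Prx37, a class III peroxidase gene, differed by -1.30, 1.58 and -3.11.

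The nearest to OPCL1 were AT5G48540, AT2G26240, AT4G31310, AT1G03730 and AT1G26300, at distances of 0.09 to 0.14 and r of 0.98 to 0.99. All 5 were highest on the replicate 1 arrays of both genotypes. AT2G26240 read 9.93 and 10.14 there and 8.57 to 8.88 on the others. No gene was among the 5 nearest to more than 1 of the 3 genes.

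**Figure D4:**
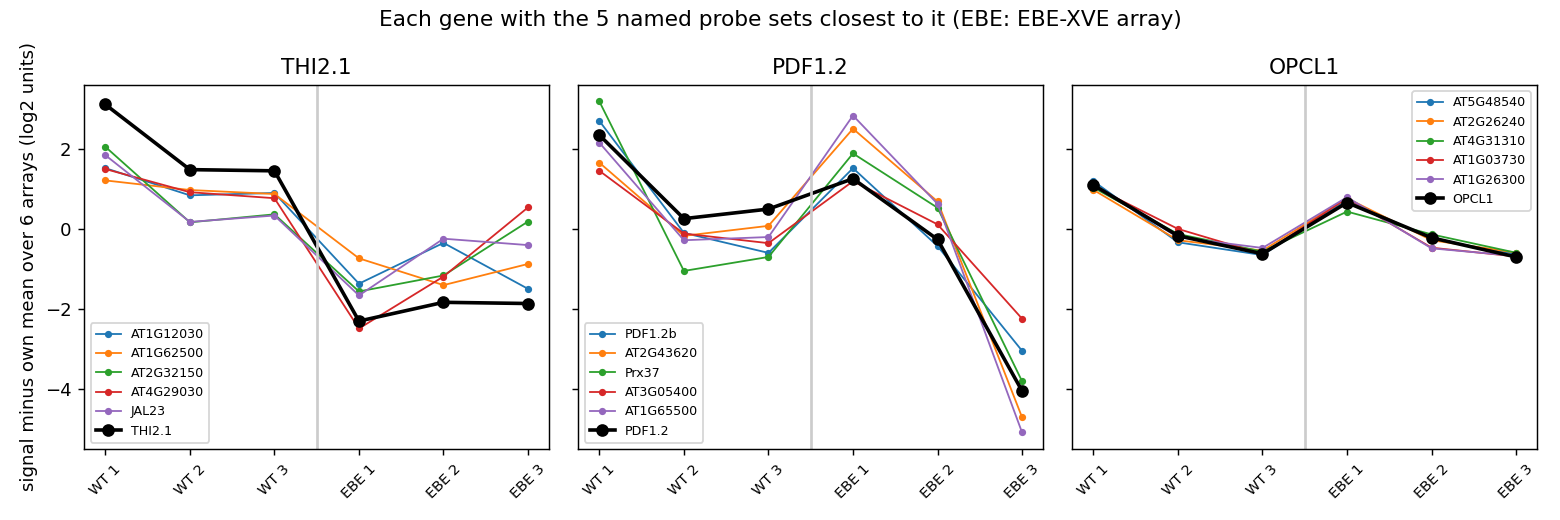
Profiles over the 6 arrays of THI2.1, PDF1.2 and OPCL1 (black) with the 5 closest named probe sets of each (colours), as signal minus the own mean in log2 units; WT arrays are left of the grey line and EBE-XVE arrays right of it. THI2.1, AT1G12030, AT1G62500, AT4G29030 and JAL23 are lower on every EBE-XVE array than on every WT array, as are 0.892% of all probe sets. The groups of AT2G32150 overlap. PDF1.2 and its neighbours drop on the array labelled EBE-XVE replicate 3, and OPCL1 and its neighbours follow the replicate number in both genotypes.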

How the data were processed

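The deposited values are log2 signals per probe set, 1 column per array. GCRMA and RMA are named, per the submitters' processing notes, with no version or role. No source used here gives the log base. It was read as log2 because the values span 1.30 to 14.99, and every fold rests on that reading. Of 22810 probe sets, the 64 control probe sets of the manufacturer were omitted. Gene names came from the platform annotation, updated by a TAIR10.1 gene table. A single symbol matched to a locus was found for 13436 probe sets. The loci were represented by the probe set of the highest mean.

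The titles of the samples give genotype and replicate number and describe the replicates as biological. EBE-XVE was compared with WT over all probe sets with limma 3.58.1 in R 4.3.3 (lmFit, eBayes with trend, group only, Benjamini-Hochberg, 2-sided, adjusted p under 0.05). The fit was also run on simulated data, but these held no replicate 1 shift, so that run does not show how the fit performs on these arrays. Deviations from the group means correlated at 0.79, 0.54 and 0.58 for same-numbered arrays, so the numbers were taken as pairs. Arrays of replicates 2 and 3 matched across numbers as closely, at 0.55 for EBE-XVE replicate 2 with WT replicate 3 and 0.60 for the reverse. The 3 genes, the gene lists (from general knowledge, roles of bare loci included) and the split of replicate 1 from the others were chosen with earlier results of these data known. The pairing of the name EBE with its locus also came from general knowledge. For each list every measured member could be named, and for likeness the 5 nearest. The number of arrays limits the precision.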

Additional observations from a re-analysis of the deposited data

How the results depend on the processing

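The differences of THI2.1 and PDF1.2 kept their sign in all 12 alternatives each. Both genes were picked with this contrast known and were below 0 in every pair, so the kept sign adds no support. The THI2.1 and PDF1.2 differences were -3.95 and -2.02 with quantile normalization, and -3.48 to -4.30 and -0.53 to -3.19 with 1 array omitted. With the replicate block, THI2.1, PDF1.2 and OPCL1 were at -4.02, -2.05 and -0.19, as without it, and the block changed no call. Each replicate number holds 1 array per genotype, so the block could not change these differences, and its place among the 12 adds no support. Within replicates 2 and 3 they were at -3.32, -2.53 and -0.06. OPCL1 ranged from -0.56 to 0.31 with 1 array omitted, and reversed at 0.12 without EBE-XVE replicate 3 and 0.31 without WT replicate 1, fits in which the replicate 1 arrays weigh unequally on the genotypes. The median over all 19 jasmonate genes was -0.10, and -0.01 to -0.24 with 1 array omitted. It was 0.00 for the median of the within-pair differences, and 0.00, with the sign turned, for replicates 1 and 2 only, a setting chosen after seeing the data. The cause was not tested. Probe sets called numbered 0 higher and 0 lower under the main setting and in all alternatives but replicates 2 and 3 only, where 3 were lower. Signal over background was not measured, which limits what the dim probe sets can show.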
